A study of Mus musculus with 6 samples.

Results

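Chaperones of the cytosol and mitochondria that belong to the heat shock response were followed through 10 genes, Hspa1a, Hspa1b, Hspa8, Hsph1, Dnajb1, Hspb1, Hsp90aa1, Hspe1, Hspd1 and Bag3. The genes were taken by symbol from a count table of 24062 genes, and all 10 had a row. They were measured by bulk RNA sequencing of non-cardiomyocytes (non-CMs) sorted from adult mouse hearts into Tw2+ and Tw2- cells. All mice carried Tw2-CreERT2 and R26-tdTO, in which tamoxifen lets a Cre recombinase made under the Twist2 driver switch on the red protein tdTomato for good. Tw2+ cells were sorted as tdTomato-positive and Tw2- cells as tdTomato-negative, so both groups had the same genotype and the same tamoxifen at 8 weeks of age. Cells were isolated by Langendorff perfusion 10 days after the first dose, from mice recorded as 9 weeks old, and the sort also used Mitoview633, a dye for mitochondria. The label marks cells that expressed the driver at dosing and their descendants, and the number of hearts behind each library was not given in the sources used here. Each group had 3 libraries, called biological replicates in the design text. The columns carry the numbers 2 and 3, and 1 library of each group is called unnumbered because its column has no number.

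Cells answer unfolded protein by releasing the transcription factor HSF1, which binds heat shock elements in promoters and raises chaperone genes within minutes. Hsp70 proteins bind exposed hydrophobic stretches with the help of J-domain partners and nucleotide exchange factors, Hsp90 acts later on folded clients, and small heat shock proteins hold aggregating protein without using ATP. In mitochondria the Hsp60 barrel and its Hsp10 lid fold imported proteins. In tissues taken apart by enzymes at body temperature, Hspa1a and Hspa1b are also known as genes that rise during the isolation itself.

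The heat shock element is built from the unit GAA and its reverse complement TTC, alternating with 2 bases between them. Promoter windows from RefSeq (build GRCm38.p6) were found for 8 of the 10 genes, Hspa8 and Hsp90aa1 being the others, and the 250 bases before each transcription start were searched on both strands. The core was either GAANNTTC or TTCNNGAA, each of which reads the same on both strands, and the triple was GAANNTTCNNGAA or TTCNNGAANNTTC, which always holds overlapping cores. A core was found in 6 of the 8 genes and in 14.5% of 27025 genes with a window. A triple was found in 2 of the 8, which share it, and in 0.514% of all genes with a window. The windows of Bag3 and Dnajb1 held no core, and only exact matches were searched. A match is a description of letters and not evidence of binding.

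Hspa1a and Hspa1b are shown in full because their counts are the results that stood out below and because their upstream regions are near copies. Capitals mark the core. The Hspa1a window lies at chr17:34972157-34972406 and the Hspa1b window at chr17:34959239-34959488, both on the minus strand and outside any exon of GENCODE M21.
Hspa1a: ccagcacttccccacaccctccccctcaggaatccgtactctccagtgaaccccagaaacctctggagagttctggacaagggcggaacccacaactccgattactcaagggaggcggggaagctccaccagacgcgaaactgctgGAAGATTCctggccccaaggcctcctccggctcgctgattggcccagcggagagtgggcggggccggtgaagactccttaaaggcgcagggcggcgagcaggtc
Hspa1b: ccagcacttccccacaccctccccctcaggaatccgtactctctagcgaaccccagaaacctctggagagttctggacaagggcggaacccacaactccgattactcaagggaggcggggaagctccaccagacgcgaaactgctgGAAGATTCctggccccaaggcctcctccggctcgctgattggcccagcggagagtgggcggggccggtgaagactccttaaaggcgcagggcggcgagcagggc
These windows differed at 3 of 250 bases, an identity of 98.8%. Counted from 1 at the 5′ end of the window, from Hspa1a to Hspa1b, the differences are C44T, T47C and T249G. The single core is the same in both, from 104 to 97 bases before the start.

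Hspb1 is shown because its window at chr5:135887669-135887918 on the plus strand held 2 separate cores. Its transcript did not pass the test below, nor did those of Hsph1, Hspe1 and Hspd1, which also had a core.
Hspb1: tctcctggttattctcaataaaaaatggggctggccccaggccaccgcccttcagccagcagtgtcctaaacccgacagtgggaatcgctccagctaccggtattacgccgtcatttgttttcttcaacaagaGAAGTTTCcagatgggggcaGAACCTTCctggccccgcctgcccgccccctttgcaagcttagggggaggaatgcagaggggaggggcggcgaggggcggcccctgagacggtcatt
Hspe1 and Hspd1 are divergent neighbours that face each other across the same element, so the same 30 bases are shown on both strands, at chr1:55088053-55088082, plus for Hspe1 and minus for Hspd1. Hsph1 is given for its single core, at chr5:149636351-149636380 on the minus strand. The GENCODE M21 gene begins at 149636376, so this core lies before the RefSeq starts but inside that gene.
Hspe1: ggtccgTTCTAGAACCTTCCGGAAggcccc
Hspd1: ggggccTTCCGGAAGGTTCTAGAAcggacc
Hsph1: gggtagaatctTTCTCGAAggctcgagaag
The Hspe1 and Hspd1 stretch holds 3 overlapping cores. It lies before the start of Hspe1 and before the second of the Hspd1 starts in RefSeq, and GENCODE M21 places it in an exon of another Hspd1 transcript. The window before the first Hspd1 start held no core.

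Of the 10 heat shock genes, Hspa1a and Hspa1b, the inducible cytosolic Hsp70 genes, were lower in Tw2+, and the other 8 did not pass the test in either direction. The test was edgeR's quasi-likelihood test with Benjamini-Hochberg adjustment over all 13180 tested genes, at an adjusted p under 0.05. All 10 genes passed the filter on low counts. The 2 genes called stand against 18.2% of all tested genes called (10.8% lower and 7.41% higher), so the share among the heat shock genes was near that of the transcriptome. The groups' values did not overlap for 3 of the 10, Hspa1a and Hspa1b (lower) and Bag3 (higher), against 37.4% of all tested genes, 19.2% lower and 18.2% higher. The median log2 fold change, Tw2+ over Tw2-, was -0.022 over the 10 genes and 0.0019 over all tested genes. Levels are given as CPM, the count scaled to the library's total after TMM, a trimmed-mean normalization.

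**Figure D1:**
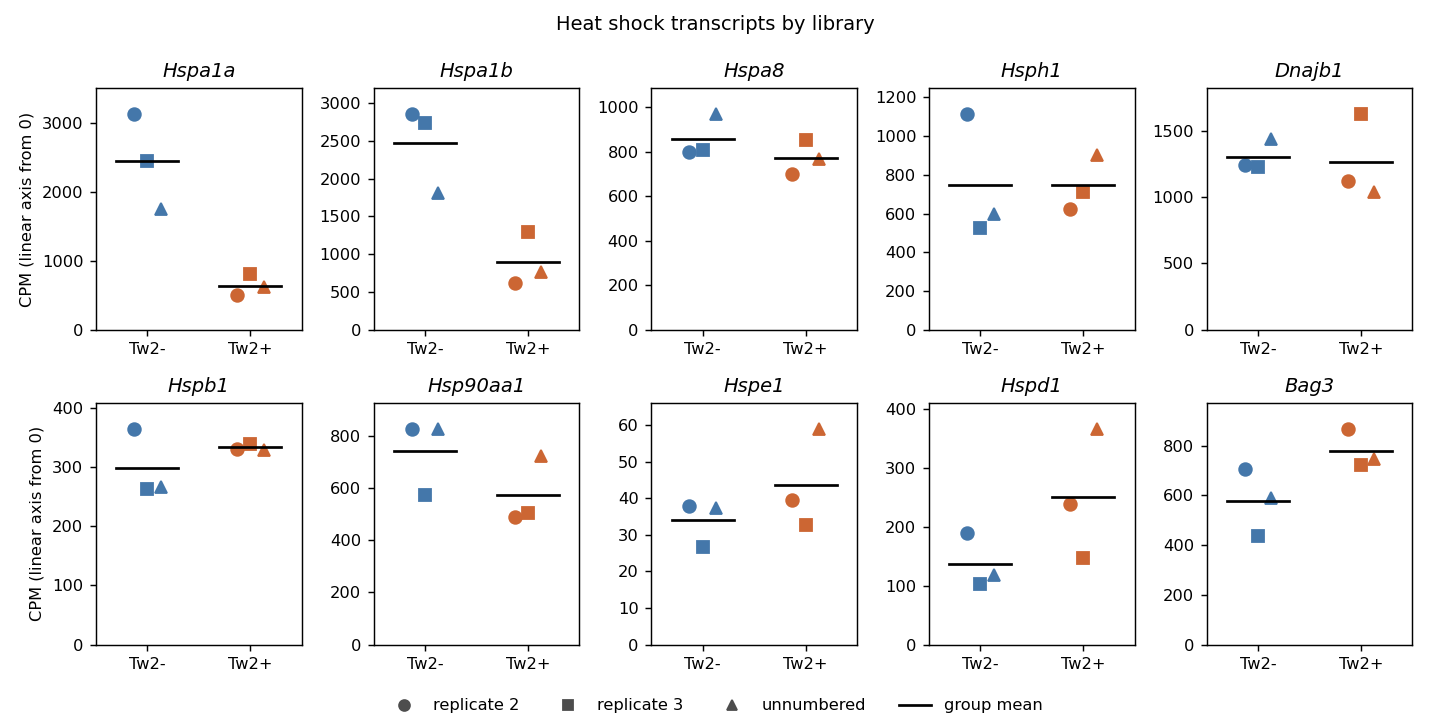
CPM of each heat shock gene (vertical axes, linear and from 0) in 3 Tw2- and 3 Tw2+ libraries, with point shapes for the replicate number and a line at each group mean. Hspa1a and Hspa1b are higher in each Tw2- library than in any Tw2+ library, Bag3 is lower in each, and the groups of the other 7 genes overlap.

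Libraries differed beyond their group. Total counts lay between 11746696 and 16447098. Without Tw2+ 3, 42.1% of tested genes were called, and 3 of the 10 heat shock genes, the third being Hspd1. Marker genes of the sorted populations were measured in the same libraries. The summed level of 12 fibroblast markers was 62907 to 75784 CPM in Tw2+ and 38592 to 57160 CPM in Tw2-, and 1 of them passed as higher. Of 10 macrophage and monocyte markers all 10 were lower, with sums of 114 to 295 CPM against 2465 to 5472 CPM. All 12 cardiomyocyte markers were lower, with sums of 152 to 501 CPM against 814 to 1524 CPM. Of 10 vascular endothelial markers 4 were lower, and their sums were 147 to 663 CPM in Tw2+ and 529 to 2117 CPM in Tw2-. All 6 granulocyte and all 6 B cell markers were lower, and 2 of the first and 1 of the second had no count in any Tw2+ library. Of 8 tested smooth muscle and pericyte markers 2 were lower, with sums of 107 to 168 CPM in Tw2+ and 122 to 425 CPM in Tw2-.

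Hspa1a is a gene of 1 exon on the minus strand of chromosome 17, from 34969190 to 34972156 in GRCm38. Its level was 3134, 2459 and 1750 CPM in Tw2- replicate 2, replicate 3 and the unnumbered Tw2- library, the order kept below. The Tw2+ values were 500 CPM (replicate 2), 810 CPM (replicate 3) and 613 CPM (unnumbered). Every Tw2- library was thus above every Tw2+ library, with more than a doubling between the lowest of the first and the highest of the second. Tw2+ cells had 3.82-fold less (edgeR log2 fold change -1.93, SE 0.31, adjusted p = 0.00371). The call held in all 18 alternatives tried, among them the 6 that each dropped a library (-2.17 to -1.75). Gm20481 on the opposite strand overlaps 19.0% of the exon, and with a strand setting not given in the sources used here the reads of that stretch could come from either gene.

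Hspa1b, which encodes nearly the same protein, lies 9951 bp away on the same strand at 34956436 to 34959238. The Tw2- libraries had 2855, 2735 and 1816 CPM. The Tw2+ libraries had 622, 1298 and 761 CPM. The groups did not overlap, and Tw2+ 3 was the highest Tw2+ library for both Hsp70 genes. The fall was 2.76-fold (log2 fold change -1.47, SE 0.34, adjusted p = 0.0210 in edgeR). It did not pass without Tw2- 2, Tw2- 3, Tw2+ 2 or the unnumbered Tw2+ library (adjusted p = 0.0636, 0.0803, 0.0934 and 0.0784 in edgeR).

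The transcripts of these copies were identical at 99.3% of 2197 aligned bases, with an unbroken identical run of 638 bases, so that reads may be shared or lost between them. Their counts were therefore also summed into 1 gene. The sum fell by 1.68 on the log2 scale (SE 0.34, adjusted p = 0.0117 in edgeR), and passed in 5 of 6 fits with 1 library left out, the exception being without Tw2+ 2 (adjusted p = 0.0635). Together the copies took 0.386% to 0.656% of all counts in Tw2- libraries and 0.0978% to 0.213% in Tw2+ libraries. As a share of the counts of all 10 heat shock genes they made up 50.7% ± 7.44 in Tw2- and 24.0% ± 5.20 in Tw2+ (mean ± SD, n = 3 each), with no overlap between the groups.

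Some marker lists of other cells shared the lowest Tw2- and highest Tw2+ library of Hspa1a and Hspa1b, and others did not. The unnumbered Tw2- library had the lowest level of both genes in its group, the lowest endothelial sum (529 CPM, against 2117 and 2034) and the lowest macrophage and monocyte sum (2465 CPM, against 4295 and 5472). Tw2+ 3 had the highest level of both genes in its group, the highest endothelial sum (663 CPM, against 210.0 and 147) and the highest macrophage and monocyte sum (295 CPM, against 197 and 114). The cardiomyocyte sums ran otherwise, being highest in the unnumbered Tw2- library (1524 CPM, against 1254 and 814) and in Tw2+ 2 (501 CPM, against 271 and 152), the libraries of lowest Hspa1a and Hspa1b in their groups. Fibroblast sums were highest in the same libraries as the cardiomyocyte sums, at 38592, 50147 and 57160 CPM in Tw2- and 75784, 67547 and 62907 CPM in Tw2+. In Tw2- their order was the reverse of that of both genes. Granulocyte sums did not share the genes' extreme libraries either, at 153, 320.2 and 163 CPM in Tw2- and 2.85, 2.60 and 2.42 CPM in Tw2+. Smooth muscle and pericyte sums did, at 425, 245 and 122 CPM in Tw2- and 143, 168 and 107 CPM in Tw2+. So did B cell sums, at 26.5, 26.8 and 19.9 CPM in Tw2- and 1.55, 1.71 and 1.31 CPM in Tw2+. The genes' full order was kept by the endothelial and the smooth muscle and pericyte sums in Tw2- alone. Macrophage and monocyte sums and B cell sums kept it in neither group. With 3 libraries per group, a list can share an extreme library with a gene without any link. The part of these cells in the fall of Hspa1a and Hspa1b was not tested. In bulk samples, fewer cells of a type that makes a transcript and less of it per cell cannot be told apart.

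Hspa8, the constitutive cytosolic Hsp70 (Hsc70), was nearly level. Its Tw2- libraries had 800.1, 807 and 970 CPM, and its Tw2+ libraries 700, 852 and 769 CPM. The groups overlapped, and the log2 fold change was -0.15 (SE 0.21, adjusted p = 0.626 in edgeR). Hspa8 is on chromosome 9 at 40800984 to 40810087. In the annotation 3 snoRNA genes overlap its exons when those of all its transcripts are merged, which need not hold for its main transcript.

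The balance of inducible over constitutive Hsp70 was compared inside each library, where scaling cancels. Counts of Hspa1a plus Hspa1b over those of Hspa8 were 7.48, 6.44 and 3.68 in the Tw2- libraries. The Tw2+ libraries had ratios of 1.603, 2.47 and 1.79. All Tw2- libraries were above all Tw2+ libraries. The mean log2 ratio was 0.94 ± 0.33 in Tw2+ and 2.49 ± 0.54 in Tw2- (SD, n = 3 each), a 2.92-fold lower ratio in Tw2+. An exact two-sided permutation test gave p = 0.10, the smallest that 3 against 3 allows (0.15 adjusted over the 3 ratios computed).

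**Figure D2:**
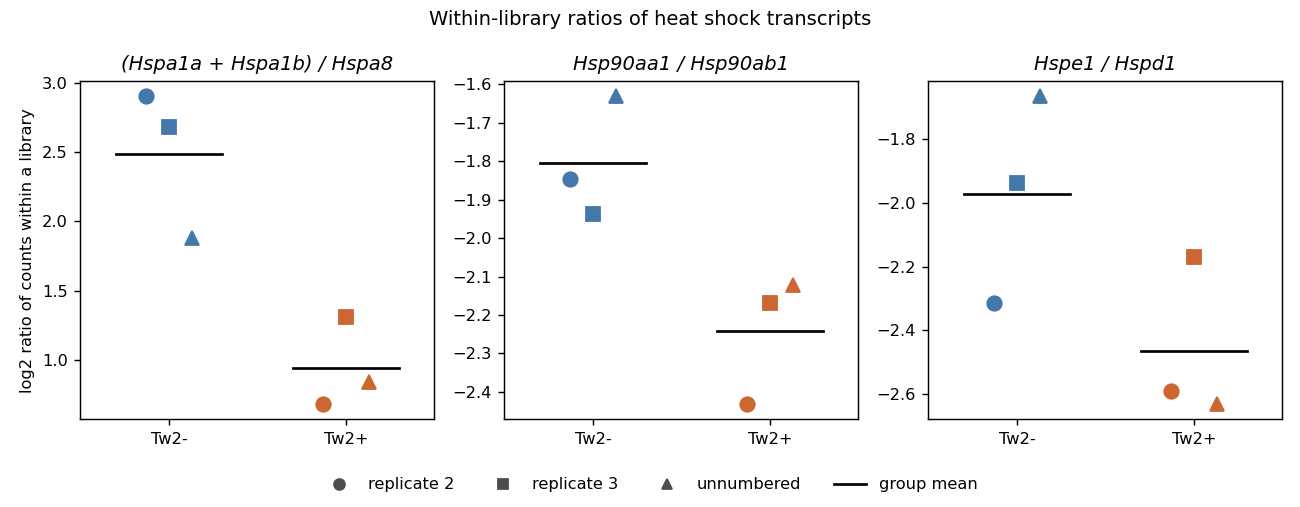
Log2 ratios of counts inside each library (vertical axes) for 3 gene pairs, in 3 Tw2- and 3 Tw2+ libraries, with a line at each group mean. The groups do not overlap for inducible over constitutive Hsp70 or Hsp90 and overlap for Hspe1 over Hspd1.

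Dnajb1 and Hsph1, which act on Hsp70 directly, did not pass the test. Dnajb1, the J-domain protein that stimulates Hsp70 in the cytosol, had 1241, 1232 and 1439 CPM in the Tw2- libraries and 1125, 1628 and 1041 CPM in the Tw2+ libraries. Tw2+ libraries held both the highest and the lowest of the 6 values. Its log2 fold change was -0.044 (SE 0.25, adjusted p = 0.914 in edgeR). Hsph1, the Hsp110 exchange factor of Hsp70, had 1113, 527 and 599 CPM in the Tw2- libraries and 624, 712 and 903 CPM in the Tw2+ libraries. Tw2- 2 was the highest and Tw2- 3 the lowest, so the spread lay within Tw2-, and the group means were both 746 CPM (log2 fold change -9.7e-05, SE 0.32, adjusted p = 0.9999 in edgeR). Dnajb1 lies on chromosome 8 at 83608193 to 83612653, and Hsph1 on chromosome 5 at 149614287 to 149636376.

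Bag3, which links Hsp70 to small heat shock proteins and to autophagy and is needed for heart muscle integrity, had 705, 435 and 589 CPM in the Tw2- libraries and 867, 721 and 745 CPM in the Tw2+ libraries. Each Tw2+ value was above each Tw2- value, with Tw2+ 3 and Tw2- 2 the closest. The log2 fold change of 0.43 (SE 0.24, adjusted p = 0.218 in edgeR) did not pass, and relative to the fibroblast markers it was -0.13. Bag3 lies on chromosome 7 at 128523616 to 128546981.

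Hspb1, the small heat shock protein Hsp27 in people and Hsp25 in mice, had 331, 340 and 330 CPM in the Tw2+ libraries. The Tw2- libraries had 365, 264 and 266 CPM. Its SD was 5.74 CPM in Tw2+ and 57.7 CPM in Tw2-, and the groups overlapped because Tw2- 2 was the highest of all. The log2 fold change was 0.16 (SE 0.20, adjusted p = 0.589 in edgeR). Hspb1 lies on chromosome 5 at 135887919 to 135889563.

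Hsp90aa1, the stress-inducible cytosolic Hsp90, had 828, 575 and 828 CPM in the Tw2- libraries and 490, 504 and 726 CPM in the Tw2+ libraries. The unnumbered Tw2+ library lay among the Tw2- values, and the log2 fold change was -0.38 (SE 0.25, adjusted p = 0.309 in edgeR). Its constitutive counterpart Hsp90ab1 averaged 2690 ± 449 CPM among Tw2+ libraries and 2581 ± 389 CPM among Tw2- libraries (log2 0.060, adjusted p = 0.885 in edgeR). The within-library ratio of Hsp90aa1 to Hsp90ab1 counts was 0.278, 0.261 and 0.323 in Tw2- and 0.185, 0.222 and 0.230 in Tw2+. Set against its counterpart, Hsp90aa1 was lower in every Tw2+ library than in any Tw2- library, by 1.35-fold on average (exact two-sided permutation p = 0.10, the smallest possible, and 0.15 adjusted over the 3 ratios). Hsp90aa1 lies on chromosome 12 at 110690605 to 110702728.

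Hspd1, the mitochondrial chaperonin Hsp60, had the highest positive log2 fold change of the 10 and did not pass the test. Its Tw2- libraries had 189, 103 and 118 CPM. Its Tw2+ libraries had 238, 147 and 365 CPM. Tw2+ 3 lay below Tw2- 2, and the unnumbered Tw2+ library was the highest. The log2 fold change was 0.87 (SE 0.35, adjusted p = 0.111 in edgeR), and without Tw2+ 3 it was 1.15 and passed (adjusted p = 0.0135). It was above 0 with every scaling tried, down to 0.30 relative to the fibroblast markers. Hspd1 covers 55077835 to 55088243 of chromosome 1 on the minus strand.

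Hspe1, the Hsp10 lid of the chaperonin, runs from 55088132 to 55091307 on the opposite strand, and its exons overlap those of Hspd1 by 112 bp. It had 38.0, 26.8 and 37.3 CPM in the Tw2- libraries and 39.5, 32.7 and 59.0 CPM in the Tw2+ libraries. The unnumbered Tw2+ library was again the highest, and the other values overlapped (log2 fold change 0.36, SE 0.26, adjusted p = 0.345 in edgeR). The ratio of Hspe1 to Hspd1 counts was 0.201, 0.261 and 0.315 in Tw2- and 0.166, 0.222 and 0.161 in Tw2+. These groups overlapped (exact two-sided permutation p = 0.20, also after adjustment over the 3 ratios), so a difference between the partners was not shown.

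**Figure D3:**
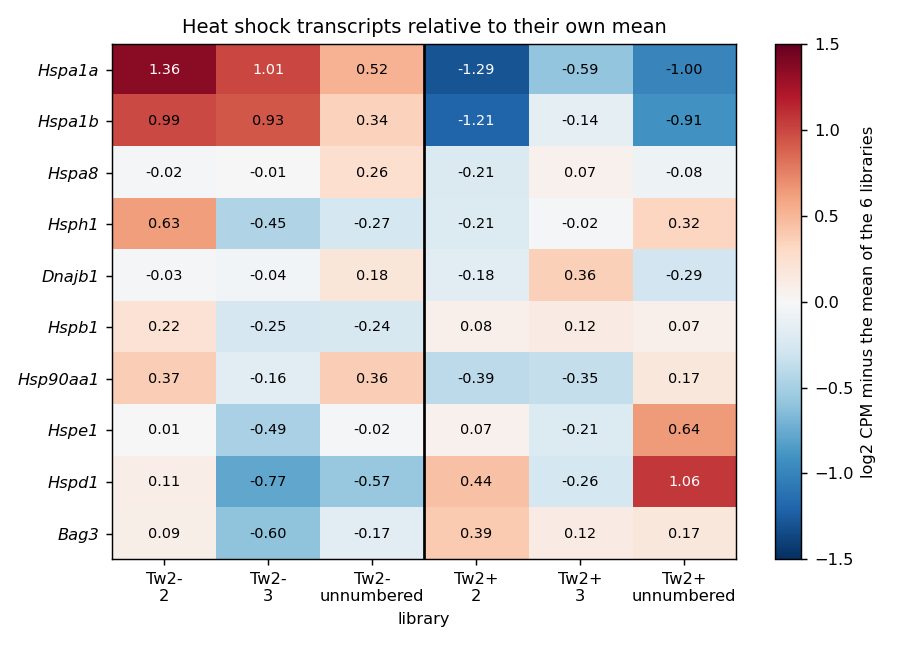
Log2 CPM (prior count of 2) of each heat shock gene in each library minus its mean over the 6 libraries, in colour and as numbers, with Tw2- libraries left of the line. Hspa1a and Hspa1b run from above 0 in Tw2- to below 0 in Tw2+, while Hspd1 and Hspe1 are highest in the unnumbered Tw2+ library.

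Levels were compared between genes only per length, as CPM per kilobase of exonic length in GENCODE M21. This length merges the exons of all transcripts of a gene. For Hspa8 it is 4301 bases, against 2394 in its longest coding transcript, and for Hsp90aa1 3931 against 3281. The order below therefore rests on the length used, and with the shorter length Hspa8 would stand higher. In Tw2- cells Hspa1b (881 ± 203) and Hspa1a (825 ± 233) were the most abundant, then Dnajb1 at 407 ± 36.4 and Hspb1 at 289 ± 56.0 (SD, n = 3). The libraries of Hspa1a and Dnajb1 did not overlap, nor did those of Dnajb1 and Hspb1. Bag3, Hspa8 and Hsp90aa1 followed at 225, 200 and 189 CPM per kilobase and could not be ordered beyond their spread. In Tw2+ cells Dnajb1 came first at 395 ± 99.1, with Hspb1 (324 ± 5.57), Hspa1b (319 ± 127) and Bag3 (304 ± 30.6) overlapping it or each other. Hspa1a followed at 216 ± 52.9 and its libraries lay below those of Bag3. In both groups the mitochondrial pair was lowest, with Hspd1 at 51.7 and Hspe1 at 23.1 in Tw2- and 94.7 and 29.7 in Tw2+, where the libraries of Hspd1 and Hsph1 overlapped.

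Over the 45 pairs of heat shock genes, likeness was measured as the root mean square difference of centred log2 CPM over the 6 libraries. Hspa8 and Dnajb1 were the most alike (0.15), followed by Hspb1 and Bag3 (0.21), then Hsph1 and Hspb1 (0.25) and the copies Hspa1a and Hspa1b (0.25). Among 8719 candidate genes with a mean of at least 10 CPM, no heat shock gene of the 10 had another of them as its nearest gene. The nearest to Hspa1a was Chd7, a chromatin remodeller (0.18), and the nearest to Hspa1b was Eepd1 (0.10). Dnaja4, a J-domain gene, was nearest to Hsph1 (0.13) and Slc16a10, an aromatic amino acid transporter, to Hspd1 (0.073). For Hspa8, Dnajb1, Hspb1, Hsp90aa1, Hspe1 and Bag3 the nearest were Cib1, Tspyl2, Prdm2, Lyst, Urb1 and Cacna1c, at 0.027 to 0.10. These are descriptions over 6 libraries in 2 groups. With 8719 candidates, a nearest gene outside the 10 was likely however the 10 vary together. The measure also places genes that vary little close to each other.

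The wider chaperone network was followed in 7 lists of 72 genes, of which 70 were tested, 7 were higher in Tw2+ and 3 lower (10 called, against 18.2% of all tested genes). The median log2 fold change of the 70 was 0.19. Without Tw2+ 3 the counts were 30 higher and 9 lower, in a fit that called 42.1% of all genes, and when the unnumbered Tw2- library was dropped as well 26 and 7, in a fit that called 41.7%. The numbers called lower and higher thus rested on which libraries were used.

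**Figure D4:**
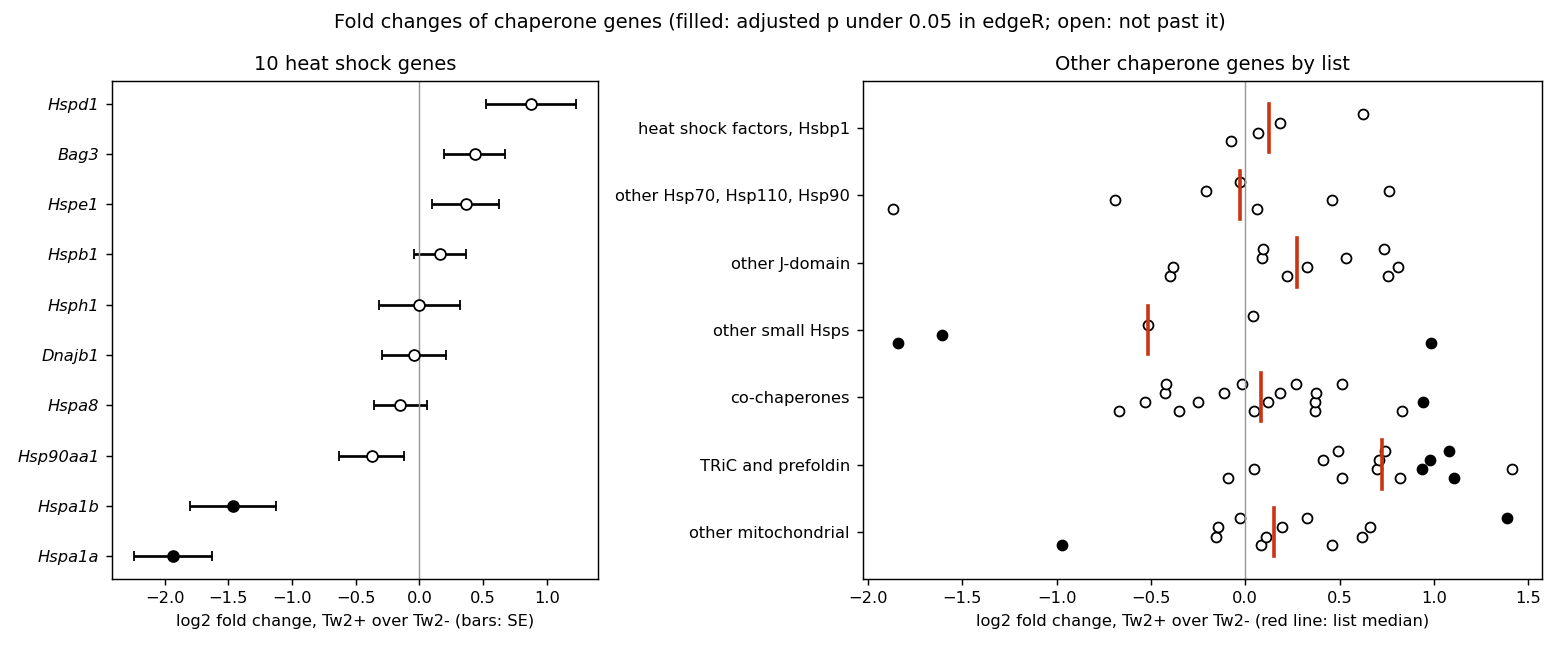
Log2 fold changes, Tw2+ over Tw2-, of the 10 heat shock genes with their SE (left) and of the tested genes of 7 other chaperone lists with a red line at each list median (right). Filled points passed the test at an adjusted p under 0.05 in edgeR, and the 4 filled points of the TRiC and prefoldin list are all above 0.

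Heat shock factors did not pass. Hsf1, the main regulator of the inducible genes, averaged 72.5 ± 14.2 CPM among Tw2+ libraries and 46.9 ± 3.94 CPM among Tw2- libraries, which did not overlap (log2 0.63, SE 0.20, adjusted p = 0.0607 in edgeR). None of the 4 listed genes, Hsf1, Hsf2, Hsf4 and Hsbp1, passed in edgeR. Hsbp1, which binds HSF1 and is not itself a heat shock factor, was at -0.074 (adjusted p = 0.800 in edgeR). At an unadjusted p under 0.05 there was 1, Hsf1, and the share of all genes at that level is not given here. DESeq2 called 1 and limma-voom 0, against 23.1% and 15.8% of all genes they tested.

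The subunits of TRiC, the cytosolic chaperonin that folds actin and tubulin, were fitted mostly above 0. Of 14 TRiC and prefoldin genes, 13 were fitted above 0 (6606 of all 13180 tested genes), with a median of 0.73. Of the 14, 4 rose, Tcp1, Cct3, Cct2 and Cct6a, against 7.41% of all tested genes called higher. Cct6a was named after its values were seen. Tcp1 averaged 318 ± 120 CPM among Tw2+ libraries and 147 ± 16.6 CPM among Tw2- libraries (log2 1.11, SE 0.29, adjusted p = 0.0338 in edgeR). Cct3 was at 1.08 (adjusted p = 0.0407), Cct2 at 0.94 (adjusted p = 0.0425) and Cct6a at 0.98 (adjusted p = 0.0420). Tw2+ 3 was the lowest Tw2+ library for each, with 190 CPM of Tcp1 against 333 in Tw2+ 2 and 429 in the unnumbered one. Without it 12 of the 14 were higher, in a fit that called 42.1% of all genes (2801 of 13561 higher). With any other library left out, or with scaling by library size or to the fibroblast markers, 0 passed in edgeR. At an unadjusted p under 0.05 there were 9, and the share of all genes at that level is not given here. DESeq2 called 8 and limma-voom 1, against 23.1% and 15.8% of all genes they tested. Relative to the fibroblast markers 10 of the 14 were above 0, with a median of 0.21 beside -0.52 for all genes. Exons of Tcp1 and Cct6a overlap opposite-strand genes (Acat3 over 11.3% and Psph over 12.5% of their exonic length).

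Mitochondrial chaperones beyond Hspd1 and Hspe1 split. Hspa9, the mitochondrial Hsp70 mortalin, rose 2.61-fold from 335 ± 78.3 CPM in Tw2- to 877 ± 443 CPM in Tw2+ (log2 1.39, SE 0.39, adjusted p = 0.0423 in edgeR). It had 393, 246 and 367 CPM in the Tw2- libraries and 916, 415 and 1299 CPM in the Tw2+ libraries, the same order of Tw2+ libraries as for Hspd1. Hscb, a J-domain protein of iron-sulfur cluster assembly, fell from 6.09 to 3.11 CPM (log2 -0.97, adjusted p = 0.0432). Dnaja3, a mitochondrial J-domain protein, was at 0.62 (adjusted p = 0.124 in edgeR), and 10 of the 12 genes did not pass. Of all tested genes 18.2% passed. With a library left out, Hspa9 and Hscb passed only in the fit without Tw2+ 3, and Hspa9 did not pass with scaling by library size or to the fibroblast markers.

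Of 5 tested small heat shock protein genes other than Hspb1, 1 rose and 2 fell. Of all tested genes 7.41% were called higher and 10.8% lower. Cryab, the αB-crystallin that chaperones desmin and is also abundant in heart muscle, rose from 82.7 ± 17.9 CPM to 164 ± 31.3 CPM (log2 0.99, SE 0.23, adjusted p = 0.0234 in edgeR). Hspb6 and Hspb7, which are found in heart and other muscle, fell to 5.26 from 18.9 CPM (log2 -1.84, SE 0.32, adjusted p = 0.00624) and to 10.1 from 30.8 CPM (log2 -1.61, SE 0.36, adjusted p = 0.0185). All 12 cardiomyocyte markers were also lower, as given above, and their part in the fall of Hspb6 and Hspb7 was not tested. Hspb8, the partner of Bag3, was at 0.041 (adjusted p = 0.911). Of the 6 fits that left out a library, Hspb6 passed in 6, Hspb7 in 5 and Cryab in 2. Relative to the fibroblast markers Cryab was at 0.45 and did not pass (adjusted p = 0.286 in edgeR). Exons of Cryab overlap opposite-strand Hspb2 over 17.0% of their length.

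Among 18 co-chaperones of Hsp70 and Hsp90, 1 passed, against 18.2% of all tested genes. Ppid, the cyclophilin 40 of Hsp90 complexes, rose from 28.5 ± 3.97 CPM to 54.7 ± 15.3 CPM (log2 0.94, SE 0.25, adjusted p = 0.0346 in edgeR), and with 1 library left out it passed only without Tw2+ 3. Ppid did not pass with scaling by library size (0.64, adjusted p = 0.0721 in edgeR) or to the fibroblast markers (0.40, adjusted p = 0.389). Fkbp4, an immunophilin of steroid receptor complexes, was at -0.53 (adjusted p = 0.0590) with no overlap between the groups. Bag6 and Cdc37 had the highest CPM and were at 0.12 and 0.044. None of 10 other J-domain genes passed in edgeR (4 at an unadjusted p under 0.05, 1 by DESeq2 and 0 by limma-voom), with Dnaja2 at 0.81 (adjusted p = 0.0764), Dnajb5 at 0.54 (adjusted p = 0.0910) and Dnajb4 at 0.095. None of 7 other tested Hsp70, Hsp110 and Hsp90 genes passed in edgeR (3 at an unadjusted p under 0.05, 3 by DESeq2 and 0 by limma-voom). Hspa4 was at 0.76 (adjusted p = 0.0682 in edgeR) and Hspa4l at -0.69 (adjusted p = 0.0633). The log2 fold changes of this list ran from -1.87 to 0.76. Of all genes they tested, DESeq2 called 23.1% and limma-voom 15.8%. The share of all genes at an unadjusted p under 0.05 is not given here.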

How the data were processed

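Total RNA of sorted Tw2+ and Tw2- non-CMs was sequenced, with 3 libraries per group. The authors deposited raw counts by gene symbol. Among tools, the submitters' processing notes list TopHat2 2.0.0 and DESeq2 1.6.3, and among builds mm10 and GRCm38, with no roles. A counting program, a strand setting and an annotation were not given in the sources used here, so copies and overlapping genes may share reads. All 6 columns were used.

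Total counts of 11746696 to 16447098 make 3 counts equal to 0.161 to 0.302 CPM, so counting error is small for the heat shock genes. Every pair of libraries within a group differed beyond counting noise (lowest chi-square over its degrees of freedom 25.3), and each counted as 1 sample. Hence p-values reflect spread among libraries that the design text calls biological replicates. Floors cover counting error only.

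Counts were tested with edgeR 4.0.16 in R 4.3.3 (glmQLFit and glmQLFTest, all 6 libraries, TMM, filterByExpr at a minimum count of 10, Benjamini-Hochberg adjustment). The filter left 13180 genes, and SE is the log2 fold change divided by the square root of F. Ratios were tested by exact permutation. DESeq2 1.42.0, limma-voom (limma 3.58.1), other scalings, filters and sets of libraries were alternatives. On simulated counts of 13013 genes for Tw2+ against Tw2-, 100.0% of 100 genes changed 4-fold and 24.0% of 100 changed 2-fold were recovered. A 2-fold change was thus often missed in the simulation. Only 200 genes were changed there, all with mean counts above 100, while 18.2% of tested genes were called in the data. Recovery depends on that share as well as on the number of libraries, so these rates may not hold for the data. GENCODE M21 (GRCm38) gave positions and lengths and matched 94.6% of symbols. Promoters came from RefSeq, GRCm38.p6. Pfdn6 was read under its older symbol H2-Ke2.

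The genes and lists were chosen with earlier results of these data known. Other named genes are, from each pathway list, the 2 with the smallest adjusted p and the 2 with the highest mean CPM, and the gene nearest to each of the 10. From 6 of the 7 cell type lists the 2 genes of highest level are given in the closing section, and those of the other list are not reported here. Cct6a and Atf3 were named after their values were seen.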

Additional observations from a re-analysis of the deposited data

How the results depend on the processing

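The fall of Hspa1a passed under all 18 alternatives (log2 -2.51 to -1.75). That of Hspa1b passed in 12 of 18, at -2.03 to -1.25, and that of the summed copies in 16 of 18. The sum missed a threshold of 0.01 (-1.68, adjusted p = 0.0117), and with 1 library left out it ranged from -1.97 to -1.49. Hspd1 passed without Tw2+ 3 and with the unnumbered Tw2- library left out as well, and in no other alternative. The number of heat shock genes called was 1 at a threshold of 0.01 and 1 in the 4 numbered libraries alone (a set added after the data were seen), and ranged from 1 to 3 with 1 library left out. Of the 7 chaperone lists, 21 genes were called by DESeq2, 6 by limma-voom, 1 at a threshold of 0.01, 33 without Tw2+ 3 and the unnumbered Tw2- library, 1 in the numbered libraries, and 1 to 39 with 1 library left out. All genes called numbered 3475 by DESeq2 (23.1% of those tested), 2087 by limma-voom (15.8%) and 791 at 0.01. They numbered 5633 without those 2 libraries, 1310 in the numbered libraries and 892 to 5707 with 1 left out. The cause of these differences was not tested. The 3 within-library ratios kept their direction with each library left out, at -1.85 to -1.34 for inducible over constitutive Hsp70, -0.50 to -0.34 for Hsp90aa1 over Hsp90ab1 and -0.66 to -0.34 for Hspe1 over Hspd1.

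Scaling by library size or to the fibroblast markers moved the all-gene median to -0.28 and -0.52, and lower calls made up 80.9% and 96.3% of the total (TMM, 59.2%). Relative to the fibroblast markers Hspe1 was at -0.16 and Hspb1 at -0.40, and Hspa1a was at -2.51.

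Replicate numbers 2 and 3 were shared by the groups. Deviations of same-numbered libraries from their group means correlated at 0.20 (number 2) and 0.56 (number 3) over genes. Those of unlike numbers correlated at -0.17 (Tw2- 2 with Tw2+ 3) and -0.42 (Tw2- 3 with Tw2+ 2). With only 2 pairs and no label that ties a number to a heart, the libraries were not treated as pairs. With the replicate number as a block on the 4 numbered libraries, 2 heat shock genes were called, Hspa1a and Hspa1b (Hspa1b log2 -1.68, adjusted p = 0.00352 in edgeR). So were 14 genes of the 7 lists and 3503 of all genes, against 1310 of all genes in the same libraries without the block.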

Other observations

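Immediate early genes, transcription factors and phosphatases that respond within minutes to stimuli and to tissue handling, were counted in every library. Their summed level was 17304 to 41957 CPM in Tw2+ and 26513 to 36390 CPM in Tw2-, so the groups overlapped, and Tw2+ 3 held the highest sum. Of 12 genes 1 was lower, against 18.2% of all tested genes called (10.8% lower), namely Atf3, from 1507 ± 66.1 to 832 ± 241 CPM (log2 -0.86, SE 0.26, adjusted p = 0.0498 in edgeR), a call that was lost whenever a library other than Tw2+ 3 was left out. The median log2 fold change of the 12 was -0.29. Without Tw2+ 3, in a fit that called 42.1% of all genes, 5 of the 12 were lower and 1 higher, with a median of -0.77, and without the unnumbered Tw2+ library 0 passed in edgeR and the median was -0.011.

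The copies Hspa1a and Hspa1b did not keep a constant ratio. Counts of Hspa1a over Hspa1b were 1.10, 0.899 and 0.963 for Tw2- (replicate 2, replicate 3, unnumbered) and 0.803, 0.624 and 0.806 for Tw2+ in that order. The groups did not overlap, a comparison chosen after the values were seen and not tested. How reads that map to both copies were counted was not given in the sources used here.

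The 2 markers of highest CPM in 6 of the 7 cell type lists had these log2 fold changes. Gsn and Dcn of fibroblasts were at 0.51 and 0.56 and did not pass. Myh6 and Mb of cardiomyocytes fell by 1.79 and 2.09 on the log2 scale. Lyz2 and Csf1r of macrophages were at -4.40 and -4.36, and Csf3r and S100a9 of granulocytes at -7.03 and -7.33. Cdh5 and Fabp4 of vascular endothelium were at -2.44 (adjusted p = 0.0497 in edgeR) and -2.38 (adjusted p = 0.0536), and Abcc9 and Rgs5 of pericytes were at -1.11 and -1.44 and did not pass.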
